A study of Mus musculus with 19 samples.

Results

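The gene loci described here are those of 8 genes that embryonic fibroblasts use to build their matrix and mark their surface: Col1a1, Col3a1, Col5a2, Col5a1, Fn1, Thy1, Pdgfra and Cd44. The members are the deposited 5-hydroxymethylcytosine (5hmC) peaks that overlap 7 windows of the mm9 mouse genome drawn around these genes, 735 kb in all, with Col3a1 and Col5a2 sharing a window. They number 870 of the 1601520 peaks in the 18 deposited lists. The windows were fixed by position and not by peak values: Col1a1 at chr11:94785000-94825000, Col3a1 with Col5a2 at chr1:45355000-45575000, Col5a1 at chr2:27730000-27905000, Fn1 at chr1:71620000-71715000, Thy1 at chr9:43840000-43865000, Pdgfra at chr5:75535000-75605000 and Cd44 at chr2:102640000-102750000. Fn1 held 385 of the peaks, Cd44 158, Pdgfra 110, Col5a1 75, Col1a1 56, Thy1 55 and the Col3a1 and Col5a2 window 31.

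The peaks came from genomic DNA in which 5hmC had been tagged with a modified glucose, coupled to biotin, captured and sequenced. The cells were pre-iPSCs, stalled intermediates on the way from mouse embryonic fibroblasts to induced pluripotent stem cells, sampled at days 0, 2 and 10 (D0, D2 and D10) while they converted. Wild-type (WT) cells gave 3 libraries per day, lettered A, B and C. Knockout (KO) cells gave 2 libraries per day, titled KO1 and KO2, which are treated here as separate lines followed over the days. The labels do not name the deleted gene, and the lists hold no expression, so neither the deletion nor the cell labels could be checked. V6.5, a mouse embryonic stem cell line (mESC), gave 1 library each at 0, 12 and 72 h, and so no replicates. Every library with a list, D0 and mESC included, carries the treatment label AA+2i, which stands for ascorbic acid, the GSK3 inhibitor CHIR-99021 and the MEK inhibitor PD-0325901. The 19th sample was an untreated input library without a list. No label describes the replicates as separate cultures, and the p-values below therefore cover only the spread among these libraries, part of which may be technical.

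TET enzymes make 5hmC by oxidising 5-methylcytosine, mostly at CpG, and ascorbic acid is a cofactor that raises their activity. In many cell types 5hmC lies over the bodies of active genes and at enhancers, and it can be a step towards the loss of methylation. Fibroblasts secrete type I, III and V collagen and fibronectin, and carry the surface proteins Thy1, Pdgfra and Cd44. As cells move from fibroblast to pluripotent state these genes are commonly used as markers of the identity that is left behind.

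CpG is the dinucleotide that carries most 5-methylcytosine and 5hmC, and its number differed widely between the members' promoters. RefSeq promoters of the GRCm38.p6 build, from 250 bases before to 50 after the transcript start, were at hand for 4 of the 8 genes. They are shown to compare that content, 5′ to 3′ along the gene's strand with each CpG in capitals; they were not placed on mm9, so no peak is assigned to them.
Col3a1: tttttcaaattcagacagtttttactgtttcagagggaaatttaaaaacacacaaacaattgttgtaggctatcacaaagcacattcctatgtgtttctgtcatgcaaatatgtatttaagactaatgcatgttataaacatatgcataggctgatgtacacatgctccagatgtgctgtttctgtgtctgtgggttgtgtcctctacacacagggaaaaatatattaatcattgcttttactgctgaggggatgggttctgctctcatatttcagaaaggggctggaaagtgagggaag
Col5a1: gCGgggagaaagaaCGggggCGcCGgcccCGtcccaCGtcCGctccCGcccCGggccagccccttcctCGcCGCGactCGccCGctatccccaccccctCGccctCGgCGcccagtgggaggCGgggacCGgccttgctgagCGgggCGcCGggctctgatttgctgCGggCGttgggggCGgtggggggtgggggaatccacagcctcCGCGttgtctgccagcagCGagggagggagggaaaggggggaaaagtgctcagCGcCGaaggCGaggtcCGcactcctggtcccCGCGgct
Pdgfra: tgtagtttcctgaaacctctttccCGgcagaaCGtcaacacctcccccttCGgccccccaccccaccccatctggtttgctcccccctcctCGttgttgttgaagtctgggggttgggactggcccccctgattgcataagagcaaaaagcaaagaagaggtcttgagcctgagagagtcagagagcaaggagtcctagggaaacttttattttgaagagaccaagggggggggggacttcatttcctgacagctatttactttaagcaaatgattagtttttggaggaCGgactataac
Cd44: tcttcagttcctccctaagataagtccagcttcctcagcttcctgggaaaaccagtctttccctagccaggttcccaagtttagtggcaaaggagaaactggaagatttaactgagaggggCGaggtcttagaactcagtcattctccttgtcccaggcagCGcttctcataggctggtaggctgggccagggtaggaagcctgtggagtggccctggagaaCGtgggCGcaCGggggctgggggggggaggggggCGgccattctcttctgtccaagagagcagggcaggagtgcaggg
The Col3a1 promoter held 0 CpG in these 300 bases, as did 5.43% of the 32851 promoters of that length. The Col5a1 promoter held 34 CpG, and 92.3% of promoters held fewer. Pdgfra held 5 and Cd44 6, near the median of 7 over all promoters.

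In WT cells Fn1 had more 5hmC peaks at D10 than at D0, while Cd44 and Thy1 had almost none left. Fn1 peaks went from 13, 18 and 4 (D0, replicates A, B and C) to 35, 34 and 33 at D10, while Cd44 had 17, 22 and 7 at D0 and 0 in all 3 libraries at D10. Thy1 went from 5, 6 and 4 peaks to 1, 0 and 0, and the window of Col3a1 and Col5a2 from 4, 1 and 3 to 0 in each library. Fn1 thereby came to hold 67.3%, 70.8% and 76.7% of all peaks in the 7 windows at D10, against 26%, 30% and 13.3% at D0. The lists themselves differed in length: on the chromosomes compared, WT lists held 61923 to 115646 peaks (D0), 106088 to 160995 (D2) and 55130 to 86458 (D10), and KO lists 61122 to 138466. Tests therefore used the 55130 strongest peaks of each library, ranked by the authors' p, which set the lowest -log10 p kept at 4.03 (WT D10 C) to 13.6 (WT D2 A). Relative to the shared input, sequencing depth recovered from the fold values was 1.03 to 1.64 in 8 WT libraries and 1.15 to 1.67 in the KO libraries. It was not read for WT D0 C, whose background was its own, nor for mESC. These depths are estimates from a fit. That fit explained a share of only 0.545 to 0.6 of the fold values it used in the WT D10 libraries, and 0.636 to 1 in the other pre-iPSC libraries. In bulk DNA, fewer cells carrying the mark and less mark per cell cannot be told apart.

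**Figure D1:**
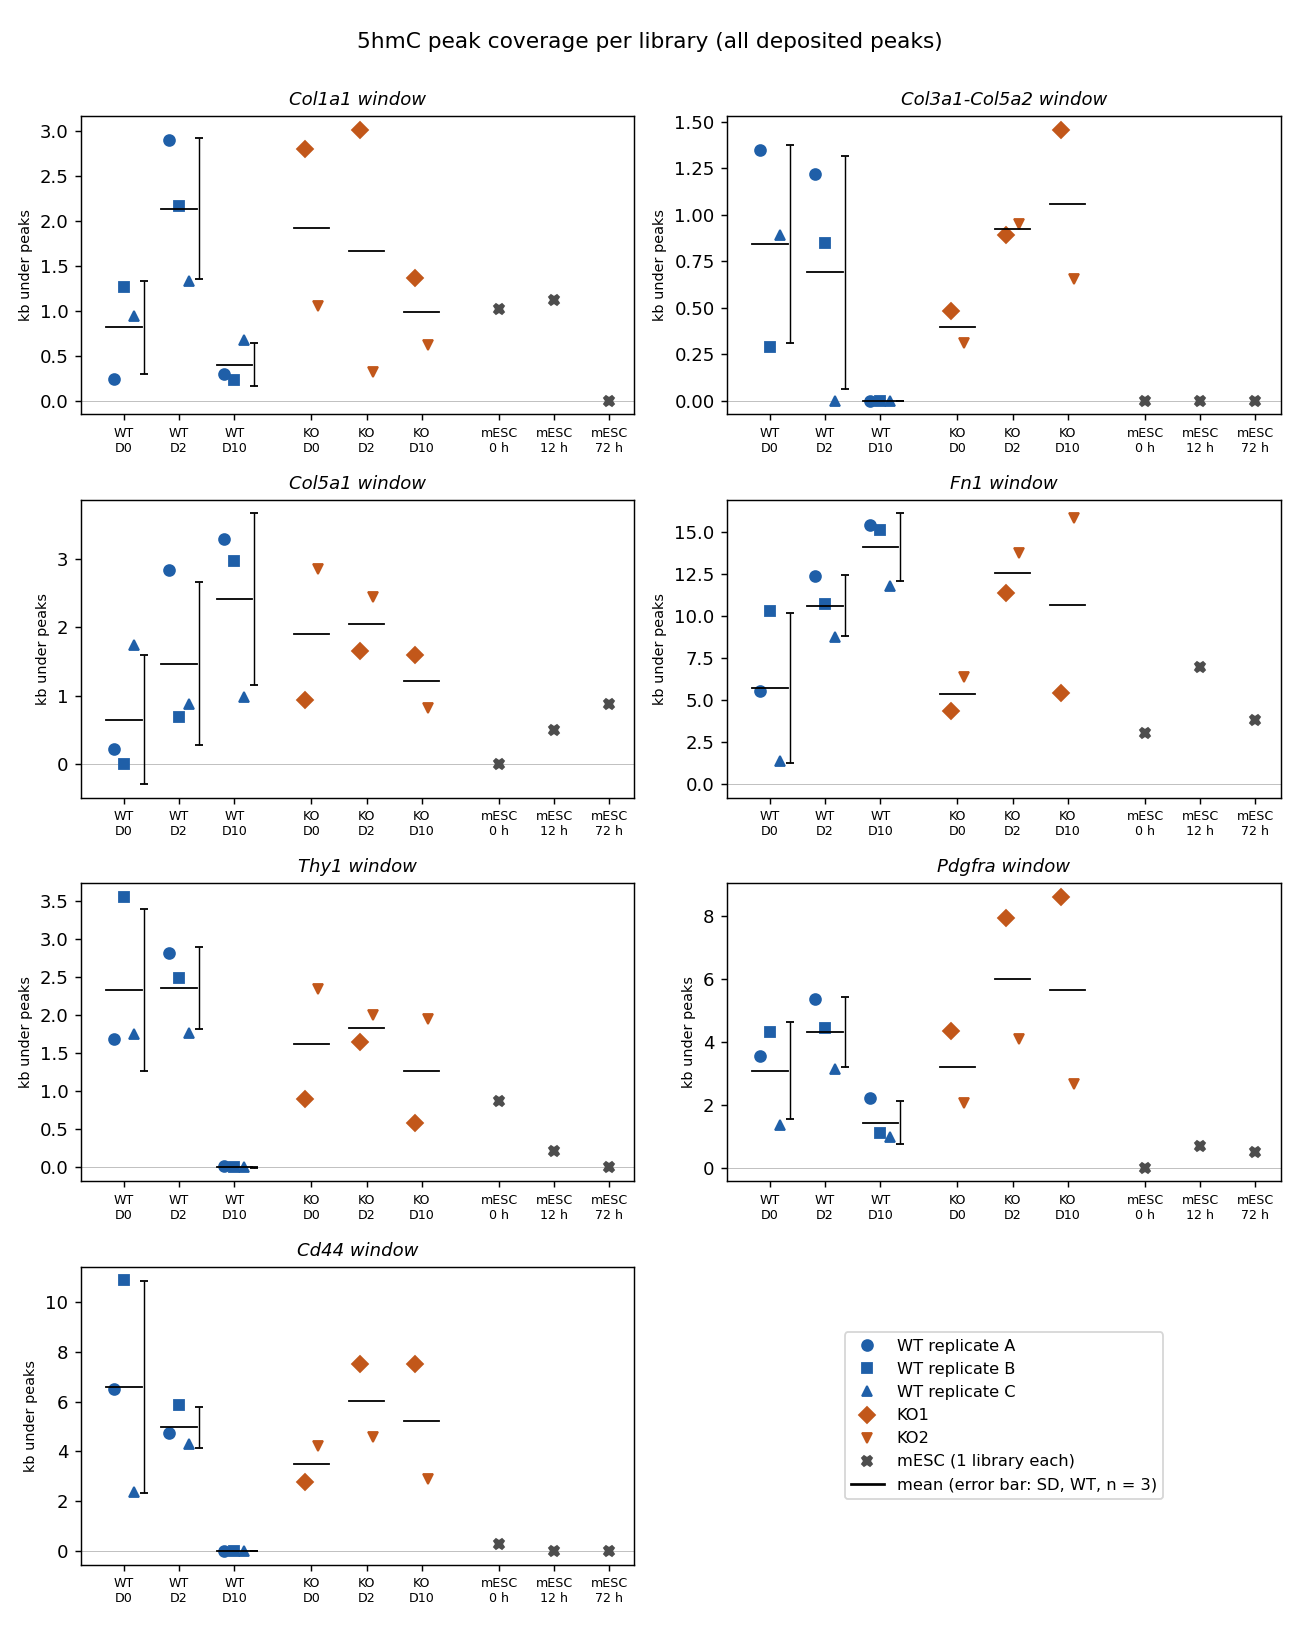
DNA covered by 5hmC peaks (kb, all deposited peaks) in each locus window, with 1 point per library, horizontal bars for group means and error bars for the SD of the 3 WT libraries. The 3 WT D10 libraries have 11.8 to 15.4 kb of Fn1 coverage, with KO2 at D10 just above them at 15.9 kb, and are at 0 in Cd44 and the Col3a1 and Col5a2 window, while KO1 and KO2 keep Cd44 coverage at D10.

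Covered length gave a first test over the 3 WT days. With the strongest peaks, an exact permutation F test on log2(covered bp + 200) gave p = 0.00714 for Cd44, 0.025 for Thy1, 0.0286 for Fn1 and 0.0321 for Pdgfra. It gave 0.0643 for the window of Col3a1 and Col5a2, 0.121 for Col5a1 and 0.571 for Col1a1. The smallest p this design allows is 0.00357, and the 7 values are not adjusted. With all deposited peaks the same exact test gave 0.0607 for Pdgfra and 0.0464 for Col1a1, so these 2 changed sides of the 0.05 threshold. With single libraries left out, the exact p ranged from 0.00357 to 0.0179 for Cd44 and from 0.0107 to 0.0357 for Thy1. For Fn1 it ranged from 0.00714 to 0.121 and was 0.05 or above without WT D0 A, D2 A, D2 C or any of the 3 D10 libraries. For Pdgfra it was 0.0679 without WT D10 B or WT D10 C.

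Fn1 encodes fibronectin, the glycoprotein to which cells attach through integrins, and is transcribed towards lower coordinates. In WT replicates A, B and C its peaks covered 5520, 10322 and 1366 bp at D0. They covered 12404, 10698 and 8756 bp at D2 and 15418, 15126 and 11788 bp at D10. Each D10 library stood above every D0 library, and the D2 libraries overlapped both. Relative to the mean coverage of the genome in the same library, the Fn1 window at D0 was covered 4.18, 5.02 and 1.67 times as densely. The ratios were 5.33, 5.20 and 5.57 for the D2 libraries and 13.5, 14.8 and 18.6 for those of D10. Mean covered length was 5736 ± 4482 bp (SD, n = 3) at D0 and 14111 ± 2017 bp (SD, n = 3) at D10.

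Within Fn1, the tiles with more and with less coverage at D10 lay apart. Of 78 tiles of 10 kb over the 7 windows, 11 had enough coverage to be tested in WT cells (8 in Fn1, 2 in Cd44 and 1 in Pdgfra), which required peaks in at least some libraries. Between D2 and D10, 6 Fn1 tiles were called higher and 1 lower by limma with Benjamini-Hochberg adjustment over 14771 tiles. Over the 7 windows 6 tiles were called higher and 4 lower, against a background of 13.8% of all tiles higher and 33.2% lower. Of the 6 higher, 5 reached the coverage minimum only through the D10 libraries in which they are high, so these are given as values without a test. The exception is the tile at chr1:71660001-71670000. Of the 4 lower, 1 would not have reached the minimum without D2.

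The tile at chr1:71670001-71680000 held 0 bp of strongest peaks in each WT D0 library, 245, 0 and 0 bp at D2, and 2866, 3399 and 2874 bp at D10. Its D10 and D2 libraries did not overlap, and D10 was 3.98 above D2 (log2 of covered bp + 200). The tile at chr1:71640001-71650000 held 0 bp of strongest peaks in every D0 and D2 library and 2489, 1201 and 1725 bp at D10. With all deposited peaks WT D0 B also had 332 bp there, and WT D10 B 1786 bp. D10 was 3.57 above D2 in this tile, 3.46 at chr1:71650001-71660000, 3.05 at chr1:71620001-71630000 and 2.29 at chr1:71630001-71640000, all on the same log2 scale.

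The tile at chr1:71660001-71670000 was 1.61 ± 0.45 higher at D10 than at D2 (log2, SE; limma adjusted p = 0.0165). That call was lost with all deposited peaks (limma adjusted p = 0.057) and without WT D2 B (0.0563) or WT D10 C (0.0642). The tile was already covered at D0, with 2559, 3074 and 563 bp, and against D0 its difference of 0.22 was not called (limma adjusted p = 0.709). It holds the strongest Fn1 peak by the authors' p of any library, chr1:71661365-71661936 in WT D0 B, with a -log10 p of 54.4 and a fold enrichment of 13.1. The highest Fn1 fold enrichment, 13.5, was in KO2 at D0.

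Further up, the tile at chr1:71690001-71700000 went the other way. Its strongest peaks covered 1734, 3165 and 385 bp in the WT libraries of D0, 2408, 2019 and 3090 bp at D2, and 0 bp in each D10 library. The fall from D2 was -3.56 ± 0.48 (log2, SE; limma adjusted p = 0.00034). From D0 it was -2.90 ± 0.48 (limma adjusted p = 0.000958).

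**Figure D2:**
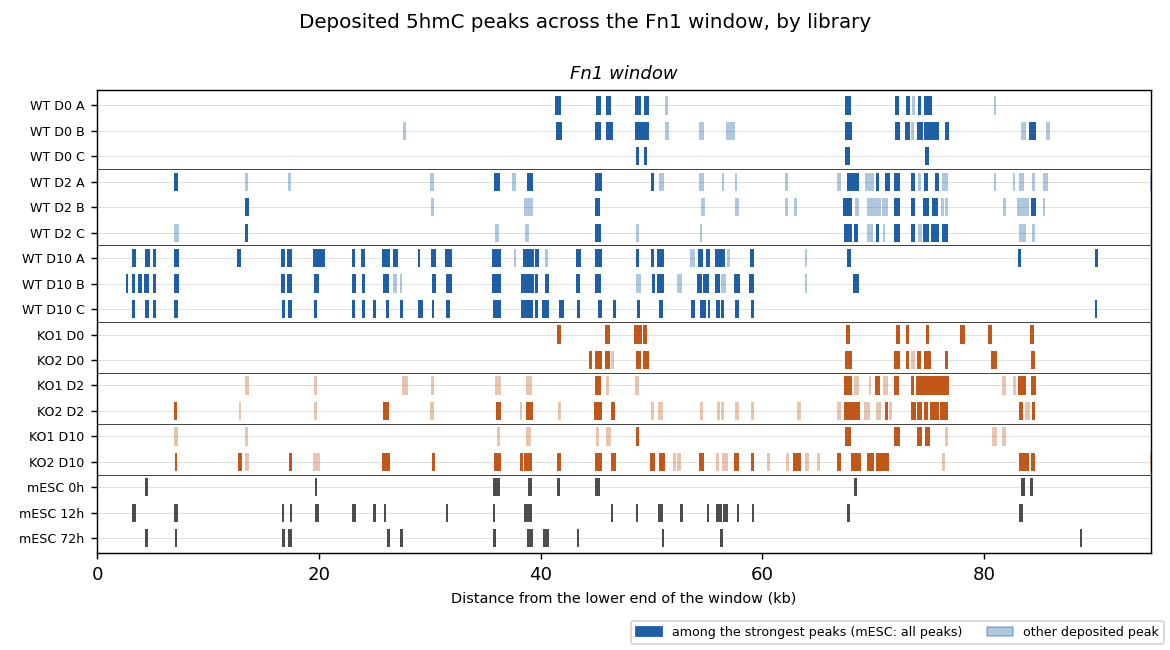
Deposited 5hmC peaks across the Fn1 window, with distance from the lower end of the window (kb) on the x axis and 1 row per library; dark boxes are among the strongest peaks and pale boxes are the other deposited peaks. The peaks of the 3 WT D10 rows spread over the first 60 kb and lack the cluster at 70 to 80 kb that the D0 and D2 rows carry; KO1 at D10 keeps that cluster and has few of the new peaks, and KO2 at D10 has both.

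Merged peaks of the 9 WT libraries gave 150 regions in the 7 windows, of 296639 in the genome. A gained region is one with a peak in each of the 3 later libraries and in none of the 3 earlier ones, and a lost region is the reverse. Between D0 and D10, 23 of the 150 were gained (background 6.49%) and 12 lost (background 8.91%). WT D0 C, which has the fewest peaks at these loci of the D0 libraries, set the second count. Without it 23 were gained (background 6.68%) and 30 lost (background 19.0%), so the lost share rose over the genome as well. Fn1 held 20 of the 23 gained regions and 1 of the 12 lost. The longest gained in Fn1 was chr1:71658177-71659382, with 0 bp in each D0 library, 546, 682 and 432 bp at D2 and 949, 1180 and 1074 bp at D10. It appeared by D2, before most of the others: chr1:71639472-71640570 had no peak at D0 or D2 and 1099, 439 and 261 bp at D10. The region chr1:71675704-71676680 had 893, 877 and 673 bp at D10 and a peak in 1 D2 library. The lost Fn1 region, chr1:71693893-71695920, was also the most covered of the locus, with 1048, 1947 and 385 bp at D0 and 0 at D10.

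By step, 7 regions were gained (background 8.43%) and 2 lost (2.55%) from D0 to D2, and 14 gained (3.36%) and 25 lost (13.9%) from D2 to D10. These counts moved with single libraries and with list length. From D0 to D2, 14 were gained without WT D0 B, 12 without WT D2 B and 11 without WT D2 C, and 13 were lost without WT D0 C and 4 without WT D2 B. With the equal-number strongest peaks the windows held 111 regions. The first step then had 1 gained (background 4.62%) and 3 lost (4.48%), and the later step 19 gained (5.71%) and 8 lost (7.85%). The balance of the later step thus turned in the loci, while over the genome more regions were still lost than gained. Of the counts with all deposited peaks, Fn1 held 5 of the 7 gained early, 13 of the 14 gained late and 8 of the 25 lost late, and Cd44 10 of the 25. No tile of the 7 windows was called between D0 and D2 (limma, 0 higher against a background of 14.8% and 0 lower against 2.97%); at an unadjusted p under 0.05, 2 were higher and 1 lower.

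Cd44 encodes the receptor for hyaluronan. At D0 its peaks covered 6512, 10865 and 2386 bp in WT replicates A, B and C, and at D2 4745, 5858 and 4285 bp. No D10 library had a Cd44 peak, so D10 stood apart from both earlier days. The strongest peak of all the loci by the authors' p was here, chr2:102656391-102656914 in WT D0 A, at 16.4 times background with an authors' -log10 p of 67.4. The tile at chr2:102720001-102730000 held 1295, 1634 and 600 bp of strongest peaks at D0 and 1099, 887 and 781 bp at D2, against 0 at D10. From D2 it fell by 2.32 on the log2 scale (limma adjusted p = 0.000317). The tile below it, chr2:102710001-102720000, fell by 1.85 from D2 (limma adjusted p = 0.00428). Against D0 the differences were -2.66 and -2.53, with no test given, since neither tile would have reached the coverage minimum without D0. Between D0 and D10, 5 tiles were called higher in the 7 windows (background 22.7%) and 4 lower (27.1%). All 5 higher were in Fn1 and had reached the minimum only through D10.

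Cd44 held 7 of the 12 regions lost from D0 to D10. The most covered, chr2:102714171-102714850, had 565, 617 and 376 bp at D0 and 486, 568 and 410 bp at D2. The region chr2:102705177-102705863 had 516, 672 and 366 bp at D0 and still 410, 355 and 479 bp at D2. The longest, chr2:102742585-102743444, had a peak in 1 of 3 libraries at D2.

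Pdgfra is the receptor tyrosine kinase for platelet-derived growth factor that mesenchymal cells carry. In the WT libraries its peaks covered 3555, 4333 and 1361 bp at D0, 5367, 4440 and 3138 bp at D2 and 2215, 1100 and 979 bp at D10. The D10 libraries lay below all D2 libraries and overlapped those of D0. The tile at chr5:75540001-75550000 held 1178, 810 and 793 bp of strongest peaks at D0, 2045, 2154 and 1450 bp at D2 and 0 at D10. It fell by 2.45 from D0 on the log2 scale (limma adjusted p = 0.000185). Against D2, without which it would not have reached the coverage minimum, the difference was -3.18. Both lost Pdgfra regions lie in it, chr5:75544253-75545762 and chr5:75545882-75547055, and each had a peak in all 6 libraries of D0 and D2. Another region, chr5:75590965-75591778, went the other way, with no peak at D0 and 691, 374 and 520 bp at D10.

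**Figure D3:**
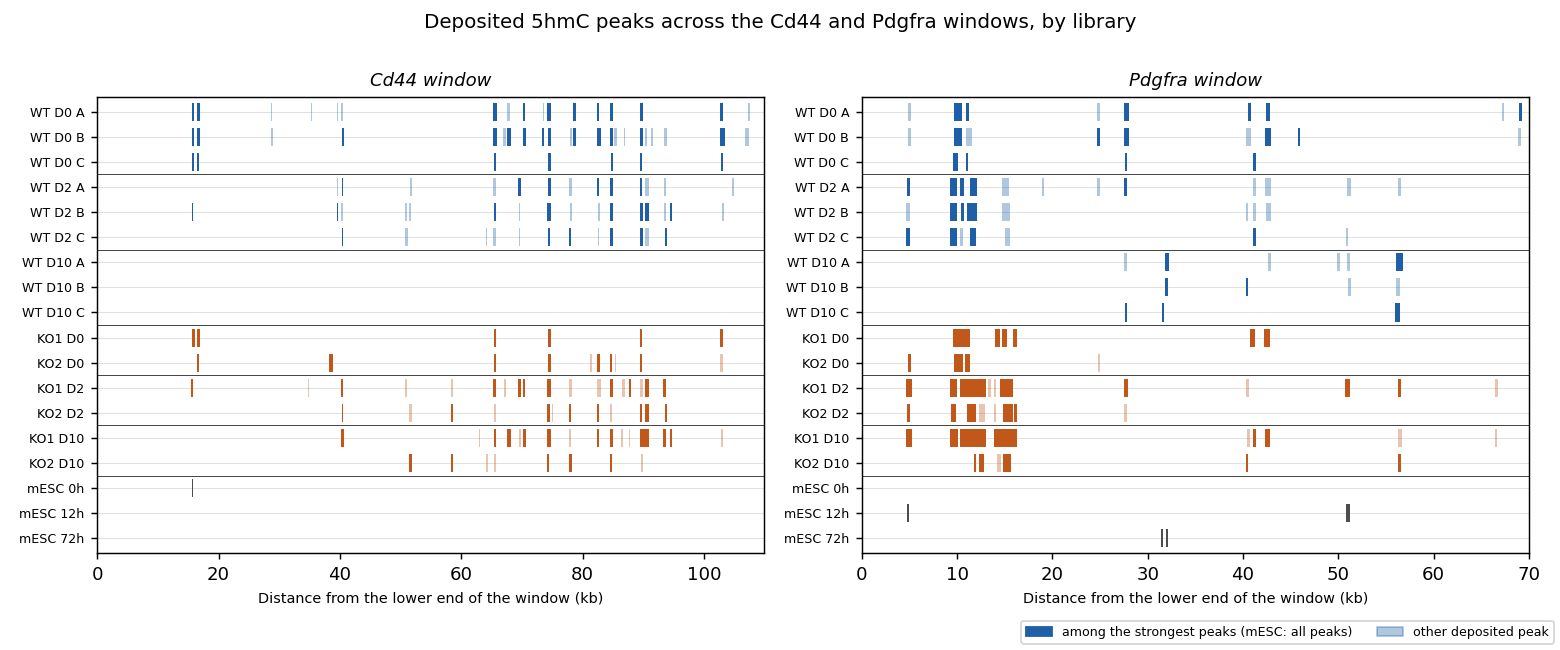
Deposited 5hmC peaks across the Cd44 and Pdgfra windows, with distance from the lower end of each window (kb) on the x axis and 1 row per library; dark boxes are among the strongest peaks and pale boxes are the other deposited peaks. The WT D10 rows are empty in Cd44 and lack the Pdgfra cluster near 10 kb, which KO1 at D10 shows as wide peaks and KO2 at D10 as smaller ones.

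Thy1, a glycoprotein held in the membrane by a lipid anchor, was covered over 1681, 3553 and 1751 bp in the WT libraries of D0 and over 2813, 2480 and 1766 bp at D2. At D10 the values were 13, 0 and 0 bp, the first from a peak that only reached the window's edge. Its most covered region, chr9:43851134-43853051, had 771, 1289 and 807 bp at D0, 883, 1308 and 1167 bp at D2 and none at D10. A second, chr9:43856701-43857848, had 610, 1148 and 275 bp at D0 and was already without a peak in all 3 libraries at D2. No 10 kb tile of Thy1 passed the coverage minimum.

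The collagen loci were thinly covered, and none of their tiles passed the coverage minimum. Col3a1 and Col5a2 encode chains of fibrillar collagens III and V; their window of 220 kb held 1348, 289 and 891 bp of peaks at WT D0, 1222, 849 and 0 bp at D2, and 0 bp at D10. Its most covered region, chr1:45388717-45389024, had a peak in 2 of 3 libraries at D0 and at D2. Col1a1, the main chain of collagen I, had 243, 1262 and 941 bp at D0, 2902, 2166 and 1335 bp at D2 and 299, 229 and 677 bp at D10. With all deposited peaks the D2 libraries thus stood above the other days, in the longest lists. With the equal-number strongest peaks Col1a1 had 971 ± 1199 bp at D2 (SD, n = 3), replicate B had no difference between days, and the test over days gave the exact p of 0.571 above. Its most covered region, chr11:94812047-94813053, had peaks in 2, 3 and 3 of the 3 WT libraries at D0, D2 and D10 and was neither gained nor lost.

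Col5a1, which encodes another collagen V chain, had its highest mean coverage at D10, 2412 ± 1251 bp (SD, n = 3) against 654 ± 944 bp at D0, a difference that did not pass the test over days. Its coverage was 227, 0 and 1736 bp at WT D0, 2836, 688 and 882 bp at D2 and 3288, 2968 and 979 bp at D10. The D10 and D0 values overlapped. The region chr2:27861714-27862674 had no peak at D0 or D2 and 823, 896 and 291 bp at D10. The region chr2:27904292-27904652 was also gained from D0, while the most covered, chr2:27892219-27893352, had peaks on all 3 days.

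**Figure D4:**
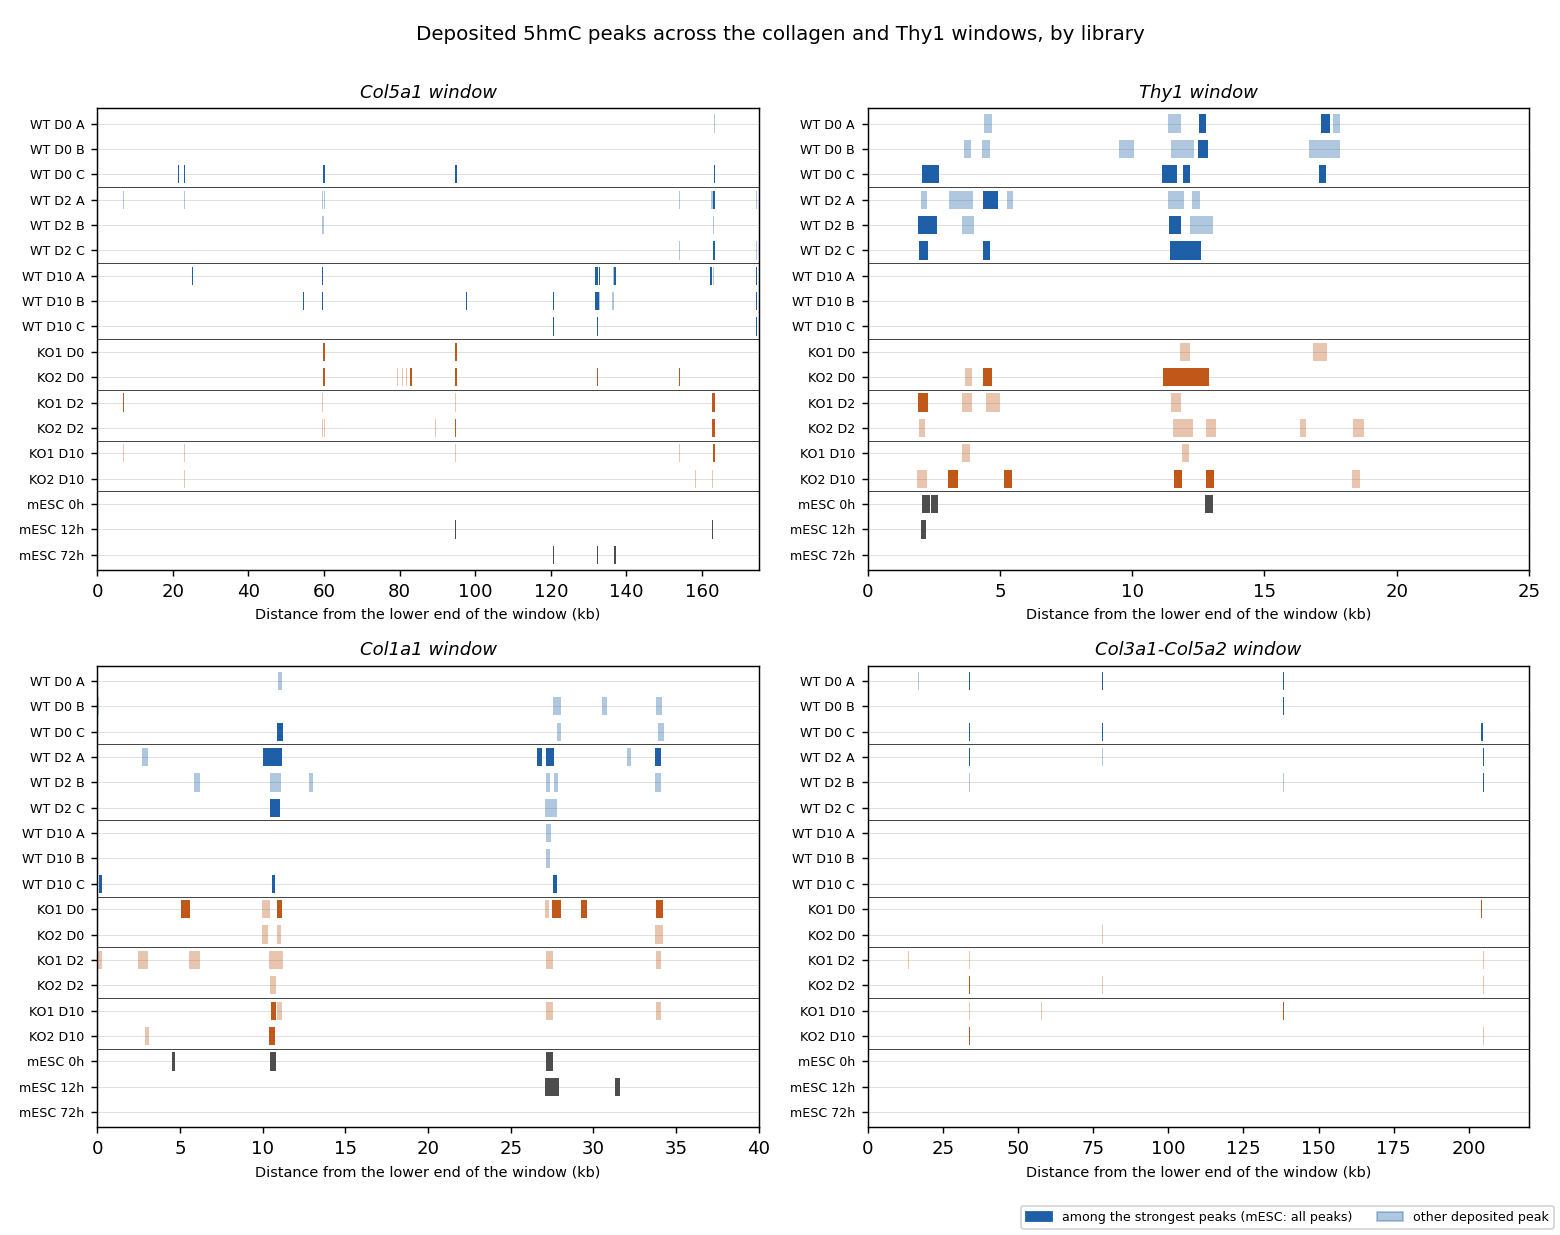
Deposited 5hmC peaks across the Col1a1, Col3a1 and Col5a2, Col5a1 and Thy1 windows, with distance from the lower end of each window (kb) on the x axis and 1 row per library; dark boxes are among the strongest peaks and pale boxes are the other deposited peaks. WT D10 rows are empty over Col3a1 and Col5a2 and almost empty over Thy1, and hold 9, 9 and 4 peaks over Col5a1.

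KO and WT cells were called different at these loci at D10 and not at D0 or D2. At D0 and D2 no tile of the 7 windows was called between KO and WT by limma: 0 of 9 tested tiles were higher or lower on either day, with backgrounds of 0.0381% higher and 0.0127% lower at D0 and 0% and 0.0254% at D2, and 0 had an unadjusted p under 0.05. At D10, 4 of the 9 were higher in KO (background 20.8%) and 2 lower (background 5.06%). The 4 higher were the Fn1 tile at chr1:71690001-71700000, both Cd44 tiles and the Pdgfra tile. The 2 lower were the Fn1 tiles at chr1:71640001-71650000 and chr1:71670001-71680000, which reached the coverage minimum only through the WT D10 libraries and are described below without a test. The comparison shares the WT D10 libraries with those between WT days, so the calls are not independent of them. From D2 to D10 within KO cells, limma called 0 of the 9 tiles in either direction, where the background was also 0% and 0%; 1 was lower at an unadjusted p under 0.05. Nor was any called between D0 and D2 (backgrounds 1.5% higher, 0.299% lower) or D0 and D10 (1.16%, 0.191%), with 0 at an unadjusted p under 0.05 in both.

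**Figure D5:**
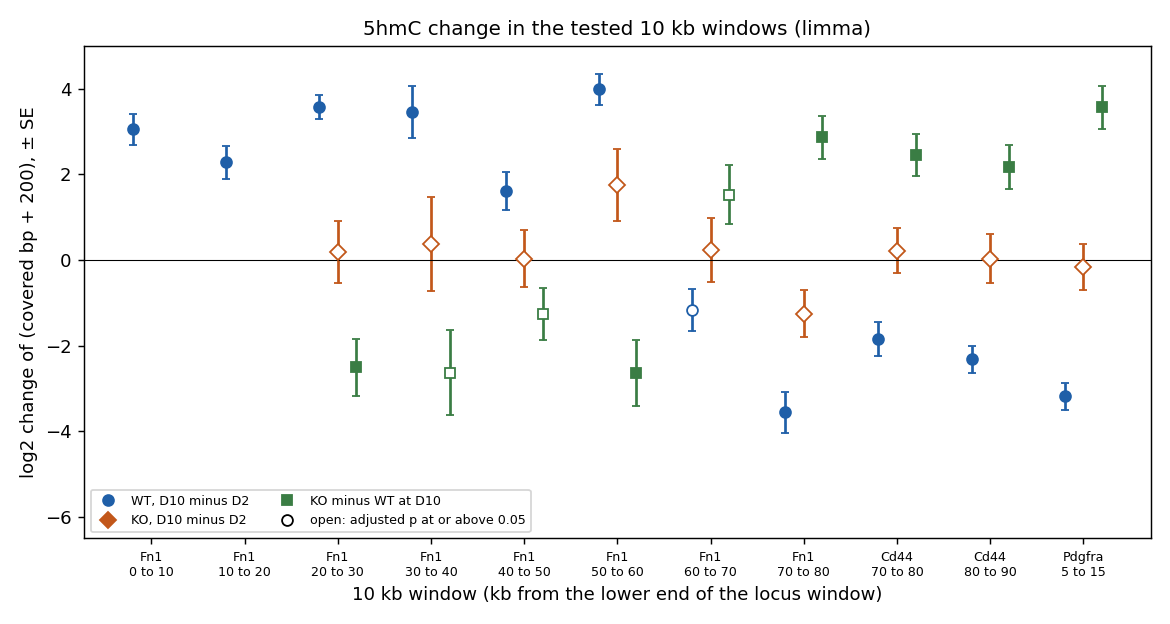
Change in 5hmC coverage (log2 of covered bp + 200, ± SE) of the 10 kb tiles tested by limma, for WT D10 minus D2, KO D10 minus D2 and KO minus WT at D10; open symbols have an adjusted p at or above 0.05. WT changes are 1.61 to 3.98 in the 6 lower Fn1 tiles, 5 of which reached the coverage minimum only through D10, and -1.85 to -3.56 in the last Fn1 tile, Cd44 and Pdgfra, while every symbol of the KO change from D2 to D10 is open.

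Cd44 coverage persisted in both KO lines. KO1 had 2769, 7488 and 7500 bp at D0, D2 and D10 and KO2 had 4205, 4577 and 2912 bp, against 0 bp in each WT library at D10. The tiles at chr2:102710001-102720000 and chr2:102720001-102730000 were 2.45 ± 0.48 and 2.18 ± 0.52 higher in KO than in WT at D10 (log2, SE; limma adjusted p = 0.00238 and 0.00742). Without KO1 at D10 the latter was no longer called (1.48, limma adjusted p = 0.105); KO2 is then the lone KO library of that day and is assumed to vary like the other groups. At D10 the KO lines held 5 (KO1) and 4 (KO2) of the 7 Cd44 regions that WT cells had lost from D0. These regions were picked for having no peak in WT at D10, so the KO counts could not fall below WT and are a description only. The share of all such regions in the genome that KO kept is not given. Over all days together, Cd44 coverage was 1.41 higher in KO on the log2 scale. An exact two-sided permutation of libraries within days gave p = 0.05, but it counts the 3 days of a line as separate. With KO1, KO2 and each WT letter permuted whole over the days the exact p was 0.1, the smallest that 2 lines against 3 can give.

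Pdgfra coverage was highest in KO1, and KO2 exceeded all WT libraries of its day at D10 only (all deposited peaks). KO1 had 4361, 7938 and 8628 bp at D0, D2 and D10 and KO2 2067, 4108 and 2665 bp. These KO2 values of D0 and D2 lay within the WT range of those days. With the equal-number strongest peaks KO2 had 1802 bp at D0, within the WT range of 1361 to 2693 bp. It then had 3092 bp at D2 and 2274 bp at D10, where WT had at most 2616 and 1078 bp. The tile at chr5:75540001-75550000 held 5019 bp of strongest peaks in KO1 and 1010 bp in KO2 at D10, and was 3.57 ± 0.50 above WT (log2, SE; limma adjusted p = 0.000259). Chromosome 5 as a whole held 11.3%, 14.0% and 12.7% of the covered length of strongest peaks in KO1 at D0, D2 and D10, against 4.34% to 7.41% in the other libraries. The tile was 2.65 above WT with KO1 left out (limma adjusted p = 0.00486). Over the whole locus and all days, KO was 1.16 above WT on the log2 scale. Permuting libraries within days gave an exact p of 0.006, and permuting whole lines 0.1, again the smallest possible. Without KO1 on every day the difference was 0.51 (exact permutation within days, p = 0.172). Scaled to each library's chromosome 5 total it was 0.68 over all days (exact permutation within days, p = 0.023). By day the scaled difference was -0.012 at D0, 0.64 at D2 and 1.42 at D10. With all deposited peaks and no such scaling, the difference over all days was 0.74 (exact permutation within days, p = 0.083).

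At Fn1 the KO lines parted. KO1 had 11, 21 and 14 peaks at D0, D2 and D10, and KO2 had 15, 33 and 35. In covered length KO1 had 11390 bp at D2 and 5416 bp at D10, and KO2 13767 and 15858 bp. With all deposited peaks, as here, the KO1 value at D10 lay below all 3 WT libraries, and the KO2 value above them. With the equal-number strongest peaks KO1 had 2273 bp at D10, again below all 3. KO2 then had 12046 bp, within the WT range of 11788 to 13993 bp. In the tile at chr1:71670001-71680000 KO1 held 0 bp of strongest peaks on each day, and KO2 held 0 bp at D0 and D2 and 1946 bp at D10. KO minus WT at D10 was -2.64 on the log2 scale, and -0.89 without KO1.

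In the tile at chr1:71640001-71650000, KO1 held 0 bp at D10 and KO2 712 bp, against 1201 to 2489 bp in WT. The difference was -2.50, and -1.38 without KO1 (log2). The upper tile at chr1:71690001-71700000 was covered in both lines, with 1441 bp in KO1 and 1227 bp in KO2 at D10 against 0 in WT. It was 2.86 ± 0.49 above WT (log2, SE; limma adjusted p = 0.00103). Of the 20 Fn1 regions that WT cells gained from D0 to D10, KO1 had a peak in 3 and KO2 in 10 at D10. These regions were picked for a peak in every WT D10 library, so the KO counts could not exceed WT and only describe the lines. With 1 library per line and day, the difference between the lines has no replicate check.

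The remaining loci gave no call between KO and WT, and their values at D10 are descriptions. With all deposited peaks, Thy1 was covered over 580 bp in KO1 and 1949 bp in KO2 at D10, against 13 bp at most in WT. The window of Col3a1 and Col5a2 was covered over 1458 and 655 bp, against 0 bp in WT. The KO lists of D10 were longer than those of WT, with 112295 and 111279 peaks. Col5a1 had 1601 and 817 bp in the KO lines at D10, within or just below the WT range of 979 to 3288 bp. Col1a1 had 1367 and 617 bp against 229 to 677 bp. With the equal-number strongest peaks Thy1 had 0 bp in KO1 and 1304 bp in KO2 at D10. Col1a1 then had 323 and 376 bp, within the WT range of 0 to 677 bp. The window of Col3a1 and Col5a2 had 342 and 261 bp against 0 bp in WT, and Col5a1 346 and 0 bp against 979 to 2791 bp. The strongest Thy1 peak of any library was in KO2 at D0, chr9:43851179-43852902, a wide peak of 1724 bp. With 2 KO against 3 WT libraries a single day cannot give an exact permutation p below 0.1. Over all days together, the exact p of libraries permuted within days was 0.62 to 0.985 for the 5 loci other than Pdgfra and Cd44.

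The run names inside the lists come in 3 styles, which may mark batches: WT A, WT B with KO1, and WT C with KO2. Within each style the day differences of WT cells kept their direction at Fn1, with strongest-peak coverage higher by 9217, 5452 and 10422 bp at D10 than at D0 in A, B and C, and at Cd44, where the differences were -4447, -6992 and -2386 bp. From D0 to D10 they were -580, -401 and -1751 bp at Thy1 and -1615, -2064 and -382 bp at Pdgfra. Within style, all deposited Cd44 peaks at D10 covered 7500 bp in KO1 against 0 in WT B, and 2912 bp in KO2 against 0 in WT C.

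Whether the D2 to D10 change itself differed between KO and WT was tested by the interaction term of limma. Of the 9 tiles, 3 had a change more positive in KO (background 9.53%) and 1 more negative (background 1.69%). The Pdgfra tile had the largest positive difference, 3.08 ± 0.70 (log2, SE; limma adjusted p = 0.0143). It was followed by the Cd44 tile at chr2:102720001-102730000 with 2.40 ± 0.74 (limma adjusted p = 0.0483) and the Fn1 tile at chr1:71690001-71700000 with 2.37 ± 0.70 (limma adjusted p = 0.0421). The Fn1 tile at chr1:71640001-71650000 had -3.44 and is given without a test, having passed the coverage minimum through WT D10. The Cd44 and both Fn1 calls lie close to the threshold and were lost in most leave-out fits, and the Pdgfra call was lost without KO1 at D10 (limma adjusted p = 0.0615) or KO2 at D2 (0.0609).

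In mESC the 7 windows held 16, 29 and 18 peaks at 0, 12 and 72 h, and Fn1 held most of them, with 9, 22 and 13. Cd44 had 1 peak at 0 h and 0 later, and the window of Col3a1 and Col5a2 had 0 at each time. Thy1 had 3, 1 and 0 peaks, Col1a1 3, 2 and 0, Pdgfra 0, 2 and 2 and Col5a1 0, 2 and 3. Relative to the genome mean of the same list, the Fn1 window was covered 8.68, 20.4 and 15.0 times as densely, over 3022, 7000 and 3838 bp. A label states that peak calling was not performed for mESC, yet lists of the same layout are deposited, and these were used. The strongest peaks of Col5a1, chr2:27866801-27867202, and of Col1a1, chr11:94812105-94812917, came from mESC at 72 and 12 h.

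The Fn1 peaks of WT D10 met most of the Fn1 peaks of mESC, by a wider margin over D2 at 12 and 72 h than at 0 h. Of the Fn1 peaks in WT D10 A, B and C, 51.4%, 52.9% and 57.6% overlapped an mESC peak of 12 h by at least 1 bp, and these met 18, 18 and 19 of the 22 mESC peaks (81.8%, 81.8% and 86.4%). The WT D2 libraries met 10, 4 and 5 of the 22. Of the 13 mESC peaks of 72 h, WT D10 A, B and C met 11, 12 and 12 and WT D2 6, 1 and 3. Of the 9 of 0 h, each WT D10 library met 6, the WT D2 libraries 6, 5 and 6, and KO2 8 at both D2 and D10. The 12 h list rests in part on weak peaks: at a minimum -log10 q of 5 it held 13 peaks in the 7 windows, not 29. Over the genome 18.4%, 19.3% and 20.6% of the peaks of WT D10 A, B and C overlapped the 12 h list, against 9.84%, 10.4% and 10.9% at D2. For the 72 h list the genome shares were 15.0%, 15.8% and 17.0% at D10 and 3.48%, 3.39% and 3.37% at D2. The higher overlap at D10 than at D2 was thus not particular to Fn1. The counts of mESC peaks met have no genome counterpart here. At D0 the Fn1 overlap with the 12 h list was 3 of 13, 5 of 18 and 2 of 4 peaks, which met 3, 5 and 2 of the 22 mESC peaks. Among the KO libraries at D10 it was 4 of 14 peaks in KO1 (4 of 22 in the other direction) and 14 of 35 in KO2 (14 of 22). Of the 20 Fn1 regions gained in WT from D0 to D10, mESC had a peak in 4, 13 and 11 at 0, 12 and 72 h. The 1 lost Fn1 region had no mESC peak at any time. Over all loci mESC had a peak in 4, 13 and 12 of the 23 gained regions and in 2, 0 and 0 of the 12 lost. Of those 12, 7 lay in Cd44, where mESC had 1 peak at 0 h and 0 later. All these are shares of lists with no replicate in mESC, the region counts have no genome share beside them, and no test was made.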

How the data were processed

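5hmC-enriched DNA was sequenced in 15 pre-iPSC and 3 mESC libraries, and peaks were deposited per library. The mm9 build and the tools Bowtie, SAMtools and MACS2 are named in the submitters' processing notes, without versions. Each deposited list gives the authors' score, the fold enrichment as a ratio, and -log10 of p and q, per the MACS2 column layout. Absolute depth is unknown. Peaks were used on chromosomes 1 to 19 and X. For tests, each pre-iPSC list was reduced to its 55130 strongest peaks by the authors' p, and mESC lists were used whole.

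Tiles of 10 kb whose mean coverage reached 500 bp, each library scaled to the mean total, were tested on log2(covered bp + 200) with limma 3.58.1 (trend and robust; R 4.3.3) and Benjamini-Hochberg adjustment at 0.05 over all tiles. WT days used 9 libraries, and KO comparisons used 15 in 6 groups. Differences on this scale understate changes of thinly covered tiles. The limma script was tested on simulated data. Loci were compared by two-sided exact permutation tests (Python 3.11.15, scipy 1.17.1). All 7 windows are described. Named tiles are those past the threshold, at most 5 per direction and contrast; named regions are the most covered per locus and the 3 longest gained or lost from D0 to D10. Members and lists were chosen with earlier results of these data known.

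KO1 and KO2 were taken as the same lines on each day: their deviations correlated between days by 0.337, 0.255 and 0.229. Alternatives were all deposited peaks, a pseudocount of 50 bp, no coverage minimum, median centring, a replicate block, whole lines permuted and leaving out each library. The replicate block was used only for comparisons of days within WT or within KO. A tile that would miss the coverage minimum without the group in which it is high is given without a test. No mm9 genome or annotation was used, so positions within genes and peak sequences are not given. The other fibroblast genes listed for comparison were for the same reason not analysed here.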

Additional observations from a re-analysis of the deposited data

Results flagged for a closer look

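In 4 of the 9 tested tiles the change from D2 to D10 was called different between KO and WT (interaction term, limma with Benjamini-Hochberg adjustment). Of these, 3 were more positive in KO (background 9.53%) and 1 more negative (1.69%). The Cd44 and both Fn1 calls were lost in most leave-out fits, as stated above. The difference, KO minus WT on the log2 scale, was -3.442 in the Fn1 tile at chr1:71640001-71650000, 2.366 in the Fn1 tile at chr1:71690001-71700000, 2.401 in the Cd44 tile at chr2:102720001-102730000 and 3.076 in the Pdgfra tile at chr5:75540001-75550000. The first tile reached the coverage minimum only through the WT D10 libraries, so its call supports nothing, and it held no strongest peak in KO1 on any day, and the Pdgfra tile lies on chromosome 5, where KO1 had an excess of covered length; the part of either in the result was not tested beyond the values without KO1.

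The change in coverage was looked up at every locus and between each pair of days. Only in the Col5a1 and Pdgfra changes given next did every WT replicate letter move against every KO line. These 2 were picked from that whole search, and how many such cases would arise by chance was not tested. The WT letters did not pair the libraries, as stated below, so a change within a letter is not one of matched samples. The differences themselves were not tested. Col5a1 coverage by strongest peaks changed from D2 to D10 by 1805 bp on average in WT, higher in all 3 letters, and by -1004 bp in KO, lower in both lines. Pdgfra coverage changed from D0 to D10 by -1354 bp on average in WT, lower in all 3 letters, and by 1817 bp in KO, higher in both lines.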

How the results depend on the processing

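Locus tiles called changed with the setting as follows. The main fits tested 11 locus tiles for WT days and 9 for the KO comparisons. Shares over all tiles are not given for the other settings, so their counts cannot be set against the backgrounds above. With all deposited peaks and no scaling, of 17 tested 3 were higher from D0 to D2, 9 lower from D2 to D10 and 7 lower from D0 to D10. Of 18 tested in that setting, 8 were higher and 1 lower in KO at D10. With every covered tile tested, 2 of 45 were lower from D0 to D2 and 7 of 45 lower from D0 to D10. In that setting 6 of 49 were lower in KO at D10, and the interaction gave 1 higher and 3 lower of 49. Median centring gave 1 lower from D0 to D2, a pseudocount of 50 bp 1 lower in KO at D10 and 0 in the interaction, and the fit of 15 libraries 3 higher from D0 to D10. Leaving out 1 library gave 0 to 1 higher (1 without WT D2 A) and 0 to 2 lower (2 without WT D0 C) from D0 to D2, and 3 to 5 higher from D0 to D10 (3 without WT D10 A or B). It gave 0 to 4 lower in KO at D10 (1 without WT D10 A, WT D10 B or KO1 at D10, 0 without WT D10 C, 4 without KO2 at D10), 0 to 1 higher in KO from D2 to D10 (1 without KO1 at D10), and 0 to 2 higher and 0 to 4 lower in the interaction. Interaction calls were lost in most of these settings at Fn1 and Cd44 and without KO1 at D10 or KO2 at D2 at Pdgfra (limma adjusted p 0.0615 and 0.0609).

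Test over WT days (exact permutation p): Col1a1 0.0464 and Pdgfra 0.0607 with all deposited peaks, and Col3a1 with Col5a2 0.0429 with a pseudocount of 50 bp. WT letters did not pair the libraries (correlations between same-lettered libraries -0.03 to 0.0451); with the letter as a replicate block, whose smallest p is 0.0278, Fn1 and Thy1 gave 0.0833 and Pdgfra 0.111, and with all deposited peaks Thy1 and Cd44 gave 0.0833. The block changed no other call between WT days, and the block on KO line left 0 tiles called within KO. The comparisons of KO with WT and the interaction were not fitted with a block. Leaving out 1 library gave 0.00714 to 0.121 for Fn1 (above threshold without WT D0 A, D2 A, D2 C or any D10 library), 0.0107 to 0.0679 for Pdgfra (without WT D10 B or C), 0.0214 to 0.136 for Col3a1 with Col5a2 (called without WT D2 C) and 0.0179 to 0.304 for Col5a1 (called without WT D0 C).

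The differences in locus coverage (log2) given next changed sign or changed sides of the threshold between settings. Those between 2 WT days, or between KO and WT within 1 day, could not give an exact permutation p below 0.1. Their lack of a call therefore says nothing about how stable they are. With all deposited peaks, D10 minus D0 was -0.66 at Col1a1, D2 minus D0 1.38 at Col5a1, and KO minus WT 0.75 at D2 and 0.88 over all days at Col3a1 with Col5a2 and 0.61 over all days at Thy1; Pdgfra over all days was 0.74 and no longer called (exact p = 0.083). Permuting KO lines and WT letters whole, added after seeing the data, left Pdgfra at 1.16 with an exact p of 0.1, the smallest possible. A pseudocount of 50 bp gave 0.32 for D2 minus D0 at Col5a1, 0.00537 for KO over all days at Col3a1 with Col5a2, and 2.06 at Cd44, which was then called (exact p = 0.047). Scaling to the mean total, added after seeing the data, gave -0.045 for KO over all days at Col1a1 and -0.053 for D2 minus D0 at Pdgfra. Scaling to the chromosome 5 total, also added, gave -0.012 for KO minus WT at D0 at Pdgfra. Leaving out 1 library, D2 minus D0 ranged from -0.64 to 1.00 at Col5a1, -0.26 to 0.88 at Fn1 and -0.19 to 0.25 at Pdgfra, and D10 minus D0 from -0.47 to 0.71 at Col1a1. KO minus WT at D0 ranged from -0.47 to 3.03 at Col1a1, -0.24 to 0.90 at Fn1, -0.21 to 0.98 at Pdgfra and -2.29 to 1.23 at Thy1, at D2 from -1.22 to 0.47 at Col3a1 with Col5a2, and at D10 from -0.030 to 2.88 at Thy1. Over all days it ranged from -0.54 to 0.63 at Col1a1, -0.40 to 0.19 at Col3a1 with Col5a2, -0.48 to 0.29 at Fn1, -0.93 to 0.24 at Thy1 and 1.17 to 1.65 at Cd44 (called without WT D0 B, WT D2 B or KO2 at D2). Without KO1 on every day it was -0.51 at Col1a1, 0.40 at Fn1, 0.48 at Thy1 and 0.51 at Pdgfra (no longer called, exact p = 0.172), and without KO2 on every day -1.16 at Thy1 (called, exact p = 0.0469). Where no value above bears on it, the cause was not tested.

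Regions in the loci: with strongest peaks 1 gained from D0 to D2 (background 4.62%) and 8 lost from D2 to D10 (7.85%). With at least 50% of a region covered, 1 was lost from D0 to D2 (background 2.61%) and 7 from D0 to D10 (6.09%). Leaving out 1 library gave 7 to 14 gained (14 without WT D0 B, 12 and 11 without WT D2 B and C) and 2 to 13 lost (13 without WT D0 C, 4 without WT D2 B) from D0 to D2, and between D0 and D10 12 to 30 lost (30 if WT D0 C is omitted). The shares over all regions for the libraries named here stand with the same counts above. With peaks of -log10 q of at least 5, mESC at 12 h had 13 peaks in the windows, not 29. The lists limit what was seen: a locus without a peak may still hold 5hmC below the peak threshold.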
